A study of Mus musculus with 32 samples.

Results

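The genes described here are 33 oligodendrocyte and myelin genes, measured by RNA sequencing in 32 mouse striata taken at 6 months. They were chosen by name, as known markers and regulators of the oligodendrocyte lineage, out of 54532 genes in the deposited count table. All 33 were found, and all passed the filter on low counts that left 16610 genes to test. They comprise 11 genes of myelin proteins, 5 transcription factors, 3 enzymes of myelin lipid and acetate metabolism, 4 markers of precursors and newly formed oligodendrocytes, and 10 other genes of mature oligodendrocytes. The mice were wild-type (WT), Msh3-/-, zQ175 and zQ175:Msh3-/-, with 8 of each genotype. Each group held 4 males and 4 females, except zQ175:Msh3-/-, with 5 males and 3 females. The zQ175 allele is an expanded CAG repeat knocked in to the endogenous mouse Htt gene, so the mutant gene is expressed in every cell type that uses the Htt promoter. The Msh3 allele is a constitutive deletion made by CRISPR, and all genotypes were littermates on a C57BL/6J background. Whole striatum was sequenced, so a level of an oligodendrocyte gene is its share of the RNA of all striatal cells. Fewer cells of a type and less RNA per cell cannot be told apart in such samples.

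Oligodendrocytes arise from precursor cells that carry the receptor PDGFRA and the proteoglycan NG2, the product of Cspg4. Precursors that leave the cell cycle pass through a short premyelinating stage, marked by Enpp6 and Bcas1, before they wrap axons. OLIG1, OLIG2, SOX10, NKX6-2 and MYRF direct these steps, and MYRF is needed for the myelin genes to be switched on and kept on. Myelin is a stack of membrane rich in cholesterol and galactosylceramide, held together by a small number of abundant proteins such as MBP. In the striatum, mature oligodendrocytes lie along the bundles of white matter that cross the tissue.

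The total count per mouse was between 12359347 and 25030335. Msh3 reads were at 24.5 ± 1.61 counts per 1000000 (CPM) in WT and 24.4 ± 1.53 in zQ175 mice, and at 11.75 ± 1.197 in Msh3-/- and 12.9 ± 1.15 in zQ175:Msh3-/- mice (SD, n = 8). Counts are per gene, and which part of the gene the reads in the knockouts came from was not tested. The summed level of 8 spiny neuron markers was 6784 to 8573 on the TPM scale, which counts transcripts per 1000000, in WT and Msh3-/- mice and 3757 to 4840 in zQ175 and zQ175:Msh3-/- mice, and all 8 markers were lower in the zQ175 mice of both comparisons described below. Markers of the choroid plexus and ependyma ranged from 53.8 to 5708 TPM between mice, and 6 cortical neuron markers from 41.4 to 531 TPM. The same striata thus differed in markers of neighbouring tissue. All 6 cortical markers had positive log2 fold changes in both zQ175 comparisons, with medians of 0.54 and 0.53, and 1 and 0 were called. For the 5 markers of choroid plexus and ependyma the medians were -0.23 and -0.12, and 0 were called in both. The part of these differences in the results below was not tested.

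The results turn on genes of which Ugt8a and Mal were lower in zQ175 mice, Enpp6 was higher and Mog was not called, and the 250 bases before the start of each are shown so that the members that moved in opposite directions can be read side by side. The sequences are from RefSeq on GRCm38.p6 and run 5′ to 3′ on the strand of the gene. That of Ugt8a is chr3:125938653-125938902 on the minus strand, that of Mal chr2:127656696-127656945 on the minus strand, that of Enpp6 chr8:46986637-46986886 on the plus strand and that of Mog chr17:37023399-37023648 on the minus strand. Starts are those of RefSeq, and the window of Ugt8a ends 33 bases before the GENCODE gene, while the other 3 adjoin theirs. None of the 4 windows overlaps an exon in GENCODE M21. Capitals mark matches to the motifs named after them.
Ugt8a: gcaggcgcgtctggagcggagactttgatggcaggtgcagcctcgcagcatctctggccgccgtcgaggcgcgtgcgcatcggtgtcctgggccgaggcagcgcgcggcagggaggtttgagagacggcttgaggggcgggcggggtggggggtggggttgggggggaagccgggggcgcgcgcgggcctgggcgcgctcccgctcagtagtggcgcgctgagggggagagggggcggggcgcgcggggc
Mal: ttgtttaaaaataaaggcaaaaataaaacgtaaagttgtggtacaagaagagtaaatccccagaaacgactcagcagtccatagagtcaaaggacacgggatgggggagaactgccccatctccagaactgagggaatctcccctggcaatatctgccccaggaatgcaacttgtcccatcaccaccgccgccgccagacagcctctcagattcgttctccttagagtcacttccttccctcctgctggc
Enpp6: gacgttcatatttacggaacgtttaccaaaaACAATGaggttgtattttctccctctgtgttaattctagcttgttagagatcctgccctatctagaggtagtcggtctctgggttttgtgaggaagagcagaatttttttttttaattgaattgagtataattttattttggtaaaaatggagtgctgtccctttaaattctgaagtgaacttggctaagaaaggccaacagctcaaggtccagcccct
Mog: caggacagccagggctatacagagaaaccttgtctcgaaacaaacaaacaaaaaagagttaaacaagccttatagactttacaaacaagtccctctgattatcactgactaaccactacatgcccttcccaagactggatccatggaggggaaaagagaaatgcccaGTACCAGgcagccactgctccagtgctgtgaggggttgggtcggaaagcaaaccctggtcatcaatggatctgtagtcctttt
Each window was searched on both strands for a SOX core (ACAAAG or ACAATG), an E-box of the kind OLIG2 binds (CAGCTG or CAGATG) and a MYRF motif (CTGGCAC or CTGGTAC). Enpp6 held 1 SOX core, 219 bases before its start. Mog held 1 MYRF motif, on the opposite strand, 83 bases before its start. The windows of Ugt8a and Mal held none of the 3. Windows were found for 23 of the 33 members. A SOX core was present in 9 of these 23, against 25.2% of all 32851 windows, an E-box in 10, against 25.5%, and a MYRF motif in 4, against 5.93%. These are matches of letters and show no binding.

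The members spanned a wide range of levels. On the TPM scale, which is per length, Mbp was the highest in WT striata, at 5387 ± 320 TPM (SD, n = 8), which placed it at rank 14 among all genes. Mobp followed at 1654 ± 106 TPM, Plekhb1 at 673 ± 39.2 and Trf at 562 ± 38.8, and the spread of Plekhb1 and that of Trf left their order clear. The lowest were Pdgfra, at 19.3 ± 1.27 TPM, Enpp6, at 10.4 ± 1.94, and Cspg4, at 8.36 ± 0.59, the latter pair overlapping between mice. The transcription factors lay between, from Olig1 at 165 ± 9.56 TPM to Olig2 at 39.6 ± 4.25. Olig2, Gjb1, Opalin and Aspa, all between 38.6 and 39.6 TPM, did not differ beyond their spread. Together the 33 genes made up 11015 to 13126 TPM in WT mice, and the lowest count of any member in any mouse was 172, for Enpp6.

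The comparison of zQ175 with WT mice shows how these genes differed with the expanded Htt allele in the presence of Msh3. A gene was called when its adjusted p (Benjamini-Hochberg, edgeR's quasi-likelihood test over all genes) was under 0.05 and its fold change was at least 1.2. In zQ175 striata 6 members were lower, namely Car2, Mobp, Mal, Ugt8a, Tspan2 and Fa2h, and 1 was higher, Enpp6. The 7 called members are 21.2% of the 33, and 11.6% of all genes tested were called. In the lower direction the shares were 18.2% of the members and 6.89% of all genes, and in the higher direction 4.7% of all genes were called. Without the fold threshold, 8 members and 26.5% of all genes passed the adjusted p-value. The median log2 fold change of the members was 0.03, against 0.01 over all genes.

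Among the genes of myelin proteins, 3 of 11 fell. Mobp (ENSMUSG00000032517, GRCm38 chromosome 9, 120149707 to 120181484), whose product is a basic protein of compact myelin, ranged from 1695 to 2118 CPM in WT mice with a median of 1779, and from 1067 to 1735 in zQ175 mice with a median of 1485. In 6 of 8 zQ175 mice it was below every WT mouse. The difference was -0.33 on the log2 scale with a standard error of 0.0937 (edgeR, adjusted p = 0.00913), and exact two-sided permutation of Mobp alone gave p = 0.000466. Mal (chromosome 2, 127633226 to 127656695) encodes a proteolipid of myelin membrane rafts. It was at 331 to 408 CPM in WT mice, median 378, and at 239 to 339 in zQ175 mice, median 304. The groups overlapped in 2 zQ175 mice. The difference was -0.32 on the log2 scale, with a standard error of 0.0802 (edgeR, adjusted p = 0.00255). Tspan2 (chromosome 3, 102734529 to 102801513), a tetraspanin of the oligodendrocyte membrane, stood at 147 to 196 CPM in WT mice, median 177, and at 119 to 164 in zQ175 mice, median 155. Its difference was -0.27 on the log2 scale, with a standard error of 0.0843 (edgeR, adjusted p = 0.0158). All 8 zQ175 mice were below the WT mean for each of these 3 genes, and in each the ranges met at WT female 1, the lowest WT mouse.

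The other 8 genes of myelin proteins were not called. Mbp, the main basic protein of compact myelin, was at 4033 to 4918 CPM in WT and 3468 to 5677 in zQ175 mice, a log2 fold change of -0.02 (95% interval -0.21 to 0.16). The zQ175 mice lay on both sides of the WT range. Cldn11, the claudin of the tight junctions between myelin layers, had a log2 fold change of -0.18 and Ermn, a cytoskeletal protein of late oligodendrocytes, -0.01. The values of Mog and Mag, adhesion proteins of the outer and inner surface of the sheath, were both 0.15. Those of Cnp, an enzyme of the non-compact layers, Opalin, a membrane protein of the paranodes, and Gjb1, the gap junction protein connexin 32, were 0.09, 0.22 and 0.22. Adjusted p-values for these 8 were between 0.0875 and 0.97.

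Of the enzymes, 2 of 3 fell. Ugt8a (ENSMUSG00000032854, chromosome 3, 125865271 to 125938619) makes galactosylceramide, the typical glycolipid of myelin. It ranged from 80.5 to 105 CPM in WT mice, median 96.3, and from 62.0 to 93.7 in zQ175 mice, median 74.9. In 5 of 8 zQ175 mice it was below every WT mouse, and the difference was -0.32 on the log2 scale, with a standard error of 0.0932 (edgeR, adjusted p = 0.0098). Fa2h (chromosome 8, 111345135 to 111393824) adds the 2-hydroxyl group to the fatty acids of these lipids. It was at 59.1 to 76.4 CPM in WT mice, median 67.7, and 46.7 to 69.2 in zQ175 mice, median 54.5. The difference was -0.27 on the log2 scale, with a standard error of 0.0844 (edgeR, adjusted p = 0.0154). Aspa, which frees acetate from N-acetylaspartate, had a log2 fold change of -0.21 with an adjusted p of 0.194.

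None of the 5 transcription factors was called. Olig1 came nearest, at 0.21 on the log2 scale (edgeR, adjusted p = 0.0183), but the change was under 1.2-fold. It was at 143 to 171 CPM in WT mice, median 156, and 146 to 218 in zQ175 mice, median 176, and 5 of 8 zQ175 mice were above every WT mouse. The log2 fold changes of Sox10, Olig2, Nkx6-2 and Myrf were between 0.01 and 0.10.

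Of the markers of early stages, the precursor markers and Bcas1 were not called and Enpp6 rose. Enpp6 (ENSMUSG00000038173, chromosome 8, 46986887 to 47096762), a choline phosphodiesterase of newly formed oligodendrocytes, was at 14.3 to 22.2 CPM in WT mice, median 16.7, and at 15.4 to 34.2 in zQ175 mice, median 23.8. In 6 of 8 zQ175 mice it was above every WT mouse, and the other 2, both females, were among the WT values. The difference was 0.53 on the log2 scale, with a standard error of 0.132 (edgeR, adjusted p = 0.00272), and it was the largest change in size among the 33. Pdgfra and Cspg4 had log2 fold changes of -0.05 (95% interval -0.15 to 0.04) and -0.02 (95% interval -0.14 to 0.10). Bcas1, which marks cells that have just begun to myelinate, had 0.09 (95% interval -0.08 to 0.25).

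Among the other genes of mature oligodendrocytes, Car2 (ENSMUSG00000027562, chromosome 3, 14886273 to 14900770) fell and the other 9 were not called. Car2 encodes carbonic anhydrase 2 and was at 185 to 243 CPM in WT mice, median 221, and at 149.8 to 193 in zQ175 mice, median 166. In 5 of 8 zQ175 mice it was below every WT mouse. Its difference of -0.35 on the log2 scale, with a standard error of 0.0742 (edgeR, adjusted p = 0.000503), had the smallest p-value of all the members. The log2 fold changes of Hapln2, a link protein of the node of Ranvier, Qdpr, a pterin reductase, and Trf, transferrin, were -0.13, -0.12 and -0.07. Those of Cryab, a small heat shock protein, Plekhb1, Gpr37, a receptor, Gsn, which severs actin filaments, Ppp1r14a, a phosphatase inhibitor, and Evi2a were between 0.03 and 0.19.

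**Figure D1:**
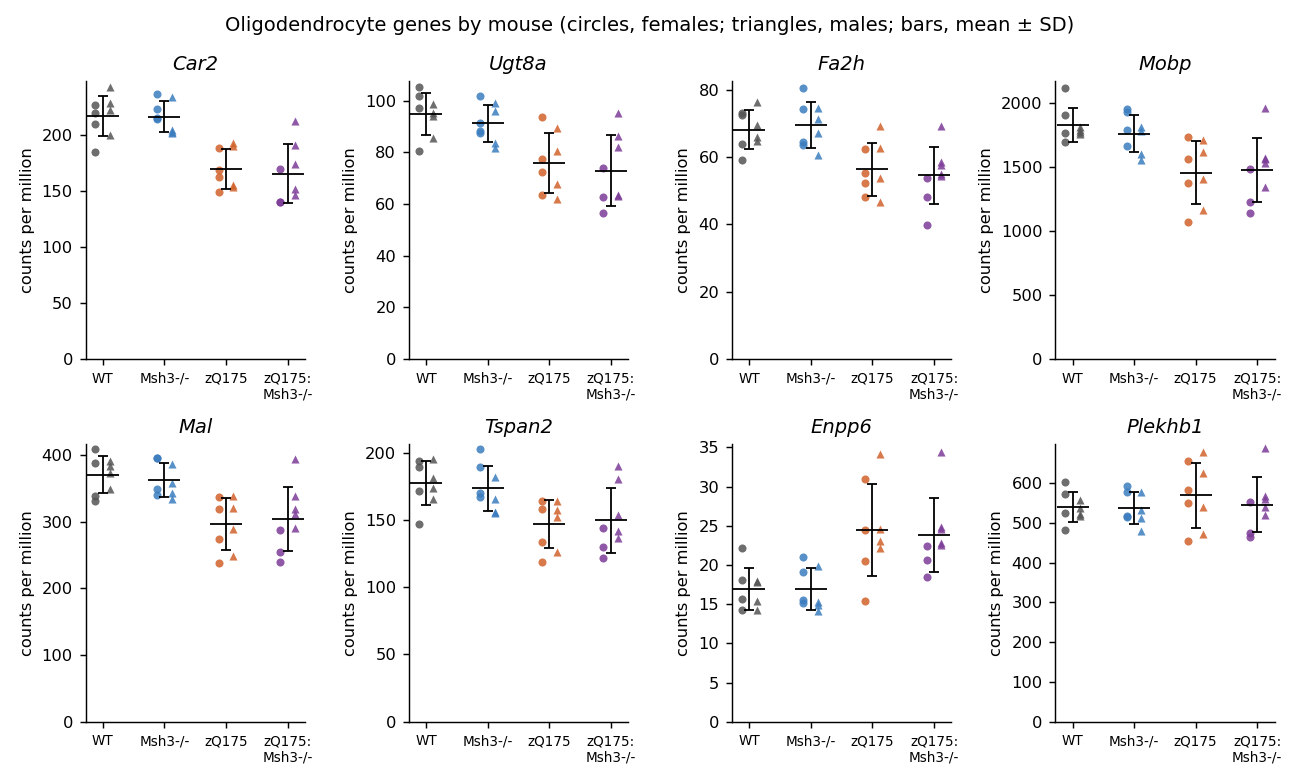
CPM (vertical axes, from 0) of the 7 members called between zQ175 and WT mice, and of Plekhb1, which was not called, in each of the 32 mice by genotype. Circles are females, triangles males, and bars the mean ± SD of 8 mice. Car2 lay at 185 to 243 CPM in WT and 149.8 to 193 in zQ175 mice, while Enpp6 moved the other way.

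Setting zQ175:Msh3-/- against Msh3-/- mice asks the same question on a background without Msh3, and shares no mouse with the first. Here 4 members were called, Ugt8a, Fa2h and Car2 as lower and Enpp6 as higher, and each of the 4 had also been called between zQ175 and WT mice. Of all genes, 7.29% were called in both, namely 1211 of the 1768 genes called in this comparison. The 4 members are 12.1% of the 33, and 10.6% of all genes were called here. In the lower direction 9.09% of the members and 5.96% of all genes were called, and in the higher direction 4.68% of all genes. Without the fold threshold, 6 members and 24.1% of all genes passed. The median log2 fold change was -0.01 for the members and 0.01 for all genes.

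Car2 was at 202 to 237 CPM in Msh3-/- mice, median 215, and at 140.0 to 213 in zQ175:Msh3-/- mice, median 161. In 7 of 8 zQ175:Msh3-/- mice it was below every Msh3-/- mouse. The difference was -0.39 on the log2 scale, with a standard error of 0.0744 (edgeR, adjusted p = 0.000195). Fa2h was at 60.5 to 80.5 CPM, median 69.3, and at 39.9 to 69.2, median 54.7, in the same order of groups, which is -0.35 on the log2 scale with a standard error of 0.0850 (edgeR, adjusted p = 0.00259). Again 7 of 8 zQ175:Msh3-/- mice were below every Msh3-/- mouse, the exception being male 3. Ugt8a was at 81.6 to 102 CPM, median 89.8, in Msh3-/- and 56.6 to 95.2, median 68.8, in zQ175:Msh3-/- mice. Its difference of -0.32 on the log2 scale, with a standard error of 0.0938 (edgeR, adjusted p = 0.0117), had the same size as between zQ175 and WT mice. Enpp6 was at 14.2 to 21.1 CPM, median 15.4, in Msh3-/- mice and at 18.5 to 34.5, median 22.7, in zQ175:Msh3-/- mice. All 8 zQ175:Msh3-/- mice were above the Msh3-/- mean, and the difference was 0.49 on the log2 scale, with a standard error of 0.133 (edgeR, adjusted p = 0.00635).

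Mobp and Mal each had a log2 fold change of -0.25, with adjusted p-values from edgeR of 0.0468 and 0.0191, but these changes were under 1.2-fold. Tspan2, at -0.21, had an adjusted p of 0.0658. Olig1, at 0.07, had an adjusted p of 0.477. Mbp, at -0.11 (95% interval -0.30 to 0.07), and the precursor markers Pdgfra, at -0.07, and Cspg4, at -0.09, were again not called. Without zQ175:Msh3-/- male 3, which had the highest mature oligodendrocyte level described below, 8 members were called. The share of all genes called in that fit was not compared. Of the 33 members, 29 had log2 fold changes of the same sign in both zQ175 comparisons, against 77.8% of all genes.

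**Figure D2:**
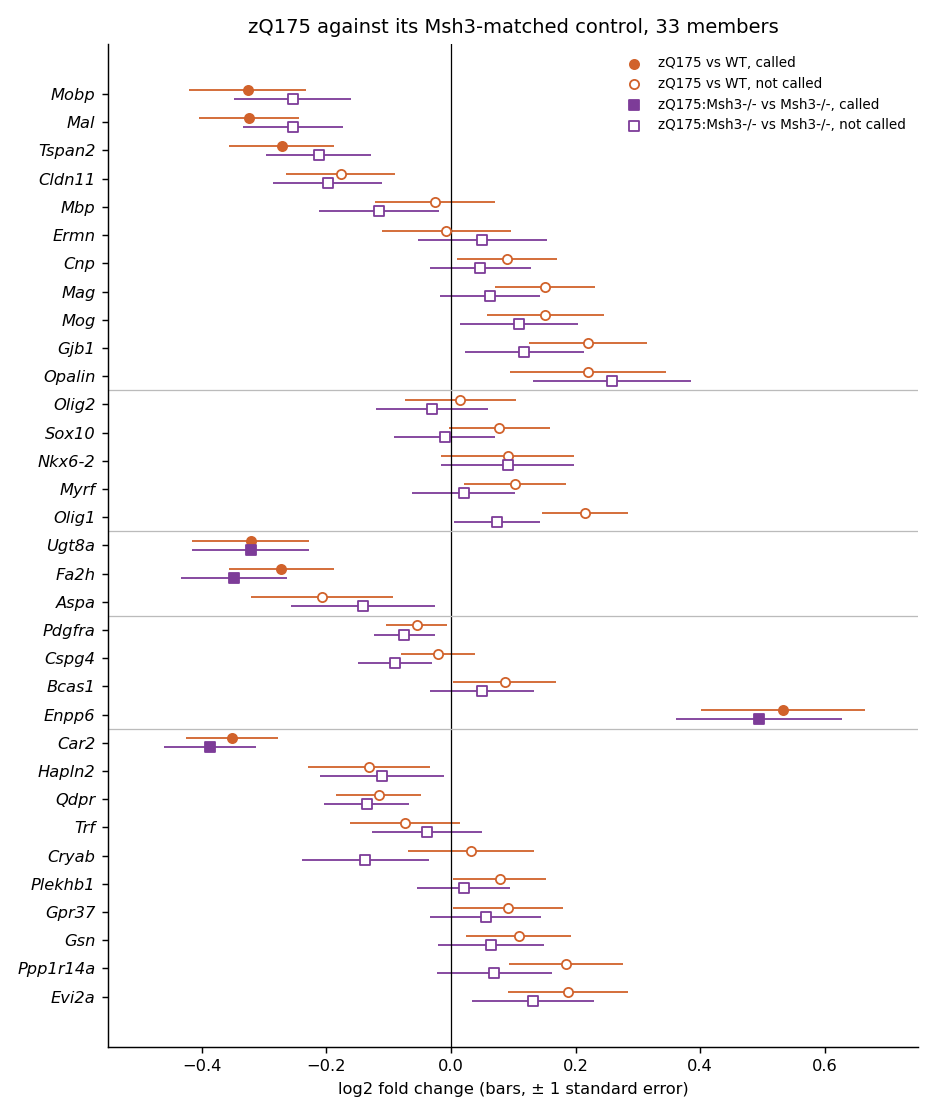
Log2 fold change (horizontal axis) of the 33 members between zQ175 and WT mice (circles) and between zQ175:Msh3-/- and Msh3-/- mice (squares), 8 mice a group. Filled symbols passed both thresholds, bars are ± 1 standard error, and lines part the 5 groups of genes; Enpp6 lies at 0.53 and 0.49, and Car2 at -0.35 and -0.39.

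When the zQ175 effect was averaged over both Msh3 genotypes, 6 members were called, against 13.7% of all genes, and 12 had an adjusted p-value under 0.05, against 39.6% of all genes. Car2 was at 77.4% of the level without zQ175, Ugt8a at 80.0%, Fa2h at 80.6%, Mobp and Mal at 81.8%, and Enpp6 at 143%. Tspan2 was at 84.6%, which is under 1.2-fold. Cldn11 and Qdpr, at 87.8% and 91.7%, were lower at adjusted p-values of 0.0158 and 0.0357, and Opalin, Gjb1 and Olig1, at 118%, 112% and 111%, were higher at 0.0328, 0.0455 and 0.0173. This average is not independent of the comparisons above.

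The loss of Msh3 was compared within zQ175 mice and without the zQ175 allele, and the zQ175 effects on the 2 backgrounds were compared as an interaction. Msh3 was the single gene called in each of the first 2 comparisons, which is 0.00602% of the genes tested in zQ175:Msh3-/- against zQ175 and 0.00602% in Msh3-/- against WT. The interaction called 0.0% of genes. No member was called in any of the 3 by edgeR or DESeq2. In edgeR 0 members reached an unadjusted p under 0.05, against 3.7%, 5.09% and 4.44% of all genes in the same order. With the mature level described below as a covariate, 2 members reached that unadjusted level in zQ175:Msh3-/- against zQ175, Evi2a and Mal, against 4.1% of all genes, and 2 in Msh3-/- against WT, Olig1 and Ermn, against 5.71%. None of these passed after adjustment, the lowest adjusted p being 0.862 in edgeR. In zQ175:Msh3-/- against zQ175 mice the differences of the 33 lay, on the log2 scale, between -0.14 and 0.04. The 95% interval was -0.18 to 0.11 for Car2, -0.24 to 0.13 for Ugt8a, -0.21 to 0.12 for Fa2h and -0.29 to 0.22 for Enpp6. Between Msh3-/- and WT mice the changes lay between -0.11 and 0.09. For the interaction, the 95% interval of Car2 was -0.24 to 0.17 and that of Enpp6 -0.41 to 0.33. Differences between the zQ175 effects within these limits were not excluded with 8 mice a group.

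Most members rose and fell together from mouse to mouse. A mature oligodendrocyte level was taken as the mean log2 CPM of 29 further genes of mature oligodendrocytes, none of them a member, and members were related to it over the 32 mice after genotype means had been removed. Of the 33 relations, 27 had a Pearson r of at least 0.8, with Spearman's rho from 0.717 to 0.962, and 0.796% of all genes outside those 29 had such an r. The permutation p-values of the 27, adjusted over the 33, were at most 1.18e-05 for r and 2.36e-05 for rho. Without the 2 mice farthest from the median, r was still at least 0.726 for each of the 27. Within a single genotype r was as low as 0.111, for Nkx6-2. Cnp had the highest r, 0.969, followed by Cldn11, at 0.964, and Gpr37, at 0.955.

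The precursor markers did not follow the mature level. For Pdgfra r was 0.101 (permutation p = 0.582, rho 0.106, p = 0.565), and for Cspg4 it was 0.155 (permutation p = 0.398, rho 0.0839, p = 0.65). Without the 2 farthest mice the values were 0.122 and 0.183. Enpp6 did follow it, with r of 0.899, and had the steepest slope of the 33, 1.68 log2 units per log2 unit of the mature level. Between these lay Cryab, at 0.559, Olig2, at 0.670, Opalin, at 0.740, and Olig1, at 0.742. Cryab and Olig2 are also used by other cells, among them astrocytes and precursors respectively. All members share the same libraries and the same normalisation.

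**Figure D3:**
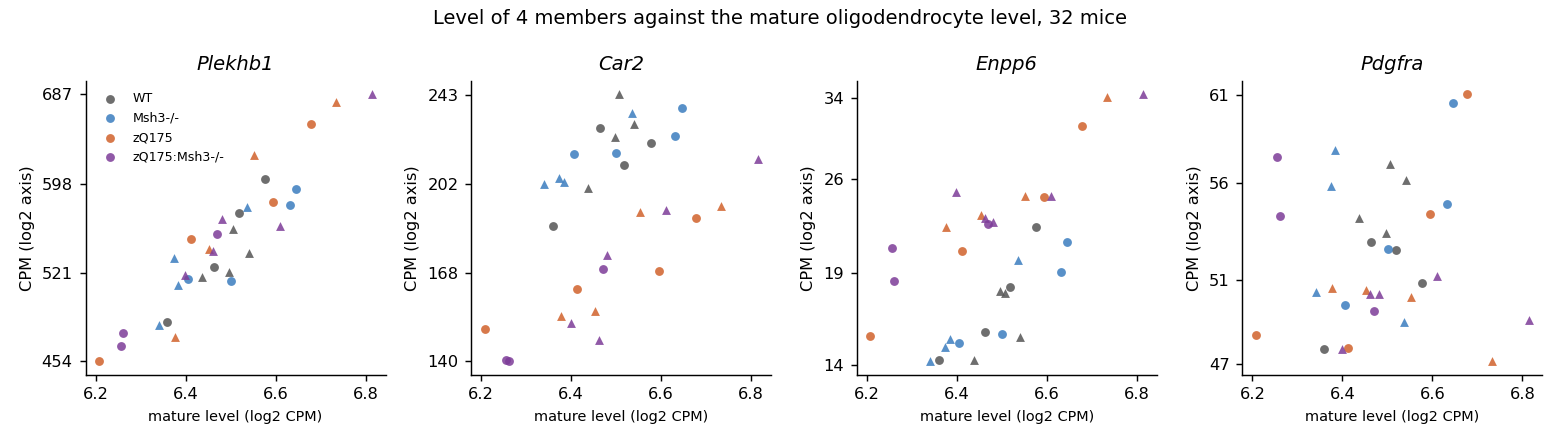
CPM (vertical axes, log2 scale) of Plekhb1, Car2, Enpp6 and Pdgfra against the mature oligodendrocyte level (horizontal axes, mean log2 CPM of 29 genes) in 32 mice, coloured by genotype, circles for females and triangles for males. At similar mature levels the zQ175 and zQ175:Msh3-/- mice lie below the others for Car2 and above them for Enpp6, while Pdgfra shows no relation to the level (r of 0.101).

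The mean of the mature level differed little between genotypes, being 6.49 for WT, 6.48 for Msh3-/-, 6.50 for zQ175 and 6.47 for zQ175:Msh3-/- mice. Its spread had an SD of 0.067 in WT and 0.119 in Msh3-/- mice against 0.172 in zQ175 and 0.182 in zQ175:Msh3-/- mice. The coefficient of variation was larger in zQ175 than in WT mice for 33 of 33 members, with a median of 15.0% against 7.31%, and for 51.7% of all genes. It was larger in zQ175:Msh3-/- than in Msh3-/- mice for 31 of 33, with a median of 16.0% against 9.44%, and for 49.9% of all genes. Without the zQ175 allele, it was larger in Msh3-/- than in WT mice for 27 of 33, against 53.5% of all genes, so the spread of the members also differed between the 2 control groups. The 33 genes move with the same mice, so these are not separate observations, and the difference in spread was not tested. The extremes were zQ175:Msh3-/- male 3, at 6.81, and zQ175 female 4, at 6.21.

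Because the mature level varied between mice, the fit was repeated with it as a covariate, an alternative chosen after seeing the data. The median standard error of the members then fell from 0.0881 to 0.0431 between zQ175 and WT mice. The 7 members called there were the 7 called before, and 11.7% of all genes were called. Between zQ175:Msh3-/- and Msh3-/- mice they were the 4 called before, against 11.0% of all genes. The adjusted p-value alone was passed by 18 members in the first comparison, 7 higher and 11 lower, against 27.9% of all genes, and by 14 in the second, 5 higher and 9 lower, against 25.9%. The differences are then relative to the other genes of mature oligodendrocytes.

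At equal mature level, 12 members passed the adjusted p-value in both zQ175 comparisons, against 18.4% of all genes. All 12 had the same direction in both, as did 3058 of the 3059 genes that passed in both. The 8 lower members were Car2, Ugt8a, Fa2h, Mobp, Mal, Tspan2, Cldn11 and Qdpr. In zQ175 against WT mice their log2 fold changes ranged from -0.37 for Car2 to -0.13 for Qdpr, and on the Msh3-/- background from -0.39 for Car2 to -0.14 for Qdpr. The 4 higher members were Enpp6, with 0.48 and 0.50, Gjb1, with 0.19 and 0.12, Evi2a, with 0.15 and 0.13, and Mog, with 0.12 and 0.12. These are differences relative to other genes of mature oligodendrocytes, and those of Mog, Gjb1, Evi2a, Cldn11 and Qdpr were under 1.2-fold in both comparisons. Without the covariate none of these 5 passed the adjusted p-value in either comparison, where it was between 0.0875 and 0.443. With it, Mobp, Mal and Tspan2 were also under 1.2-fold on the Msh3-/- background, at -0.26, -0.26 and -0.21 on the log2 scale. Pdgfra and Cspg4 did not pass, with log2 fold changes of -0.06 and -0.02 in the first comparison and -0.07 and -0.09 in the second.

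**Figure D4:**
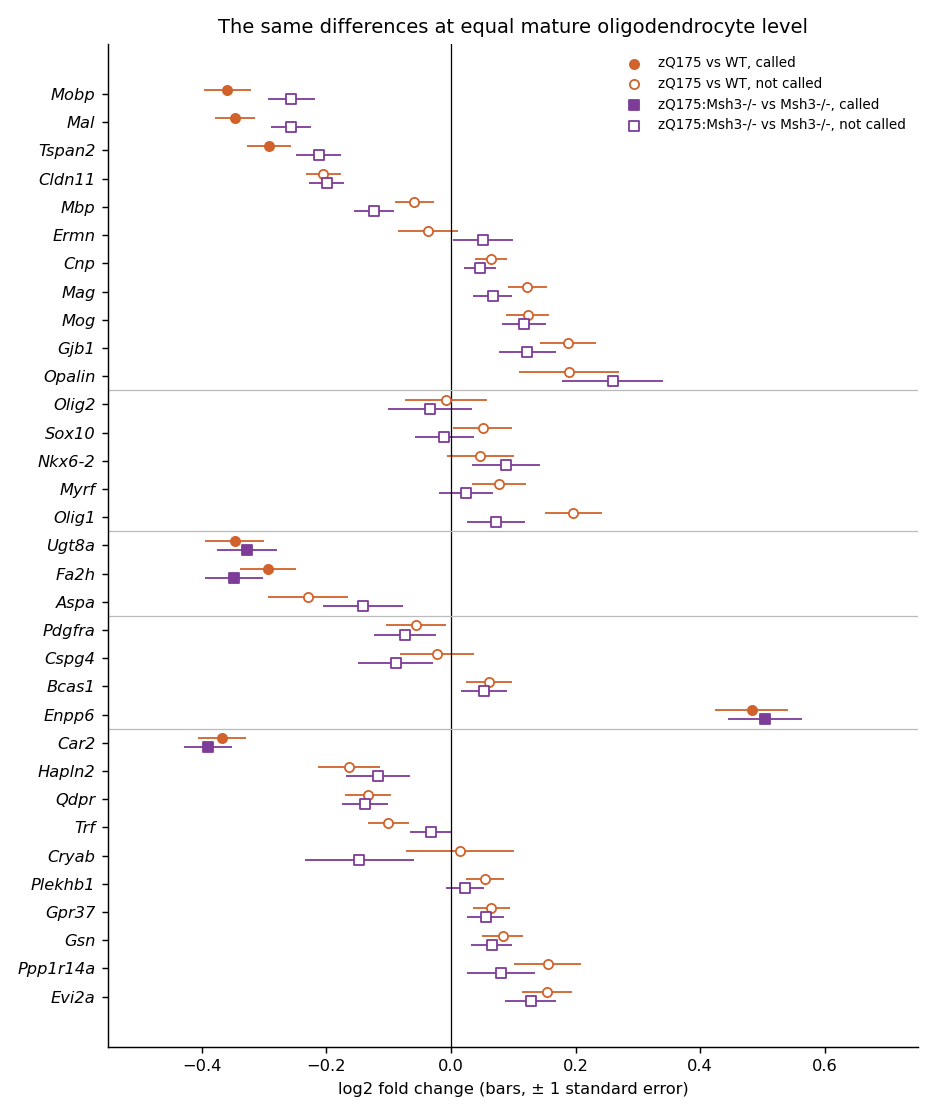
Log2 fold change (horizontal axis) of the 33 members with the mature oligodendrocyte level in the model, for zQ175 against WT (circles) and zQ175:Msh3-/- against Msh3-/- mice (squares). Filled symbols passed both thresholds and bars are ± 1 standard error, whose median fell from 0.0881 to 0.0431; Enpp6 lies at 0.48 and 0.50, and Car2 at -0.37 and -0.39.

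On the Msh3-/- background the members were also compared within each sex. In females alone, 3 zQ175:Msh3-/- against 4 Msh3-/-, 7 members were called and all were lower, against 6.39% of all genes, and the members' median log2 fold change was -0.20. In males alone, 5 against 4, 3 members were called and all were higher, Mog, Gjb1 and Enpp6, against 9.44% of all genes, and the median was 0.13. For 32 of 33 members the log2 fold change was higher in males than in females. The test of that difference, chosen after seeing the data, gave an unadjusted p under 0.05 in 20 of 33 members, against 6.75% of all genes. Most members move with the same mice, so these counts are not of separate observations. No gene passed after adjustment, and the lowest adjusted p of a member was 0.722 in edgeR. In zQ175 against WT mice the difference between sexes reached this unadjusted level in 1 member, against 4.25% of all genes.

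The mature level moved with these sexes. It was 6.33 ± 0.122 in zQ175:Msh3-/- females (SD, n = 3) and 6.55 ± 0.114 in Msh3-/- females (n = 4), but 6.55 ± 0.165 in zQ175:Msh3-/- males (n = 5) and 6.41 ± 0.087 in Msh3-/- males (n = 4). With the level as a covariate, 5 members were called in females, with Car2, Ugt8a, Fa2h and Mal lower and Enpp6 higher, against 5.64% of all genes. In males 4 were called, with Car2, Ugt8a and Fa2h lower and Enpp6 higher, against 10.2% of all genes. The log2 fold change of Car2 was -0.57 in females and -0.27 in males without the covariate, and -0.41 and -0.45 with it. That of Enpp6 was 0.21 and 0.68 without it, and 0.65 and 0.44 with it.

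**Figure D5:**
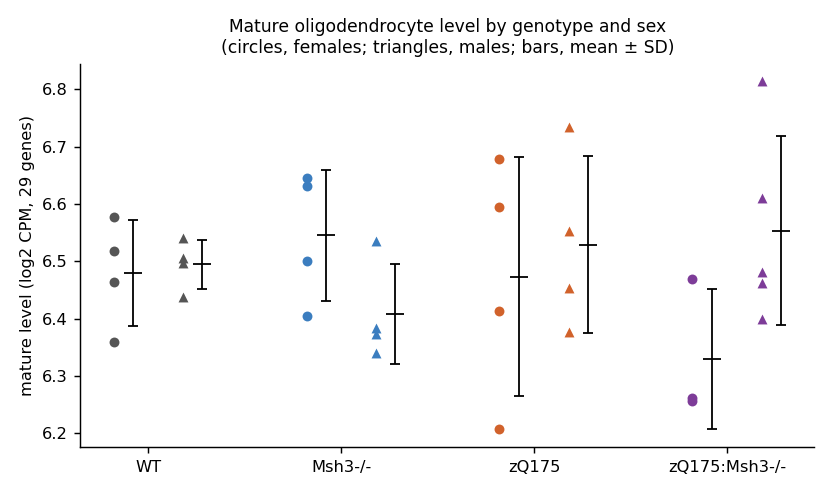
Mature oligodendrocyte level (vertical axis, mean log2 CPM of 29 genes) of each mouse by genotype, with females as circles, males as triangles and bars for the mean ± SD of each sex. On the Msh3-/- background the zQ175 females averaged 6.33 against 6.55 in their controls, and the zQ175 males 6.55 against 6.41.

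Other genes of the lineage were counted by list. The share of all genes called was 11.6% in zQ175 against WT mice and 10.6% on the Msh3-/- background. Of the 29 further genes of mature oligodendrocytes, 1 was higher and 1 lower in zQ175 than in WT mice, and 0 were higher and 2 lower on the Msh3-/- background, Il33 and Klk6. Their median log2 fold changes were 0.04 and 0.05. Il33, an alarmin stored in oligodendrocyte nuclei, fell from 91.1 ± 8.55 to 71.7 ± 8.17 CPM (SD, n = 8) between WT and zQ175 mice, or by 0.34 on the log2 scale, and Tubb4a, a tubulin of myelinating cells and neurons, rose by 0.26. On the Msh3-/- background Tubb4a was not called. Klk6, a protease of mature oligodendrocytes that is named because it was called there, had -0.45 on that background. It was not called between zQ175 and WT mice.

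Of the 20 further genes of precursors and committed cells, 1 was higher and 1 lower in zQ175 mice, and 2 were higher and 0 lower on the Msh3-/- background, Zfp488 and Nkx2-2. Their median log2 fold changes were -0.003 and -0.05, and 10 and 9 of the 20 were positive. As a share of all genes, 11.6% and 10.6% were called. Of 6 markers of committed or newly formed cells, Enpp6 among them, 4 and 2 were positive. Of 6 precursor markers, Pdgfra and Cspg4 among them, 1 and 1 were positive. Zfp488, a transcription factor of differentiating oligodendrocytes, rose from 5.42 ± 0.678 CPM in WT to 7.61 ± 1.08 in zQ175 mice (SD, n = 8), or by 0.49 on the log2 scale (edgeR, adjusted p = 0.000117). It was at 5.01 ± 0.663 in Msh3-/- and 7.53 ± 0.984 in zQ175:Msh3-/- mice, which is 0.58 higher on the log2 scale (edgeR, adjusted p = 1.67e-05). Nkx2-2, a transcription factor of the lineage that is named for the same reason, had 0.36 there. It was not called between zQ175 and WT mice. Vcan, a matrix proteoglycan of precursors, had -0.33 in zQ175 against WT mice and was not called on the Msh3-/- background. No gene of the 16 for further steps of myelin lipid synthesis was called in either zQ175 comparison, with medians of -0.02 and 0.00.

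Among 20 regulators of myelination, 1 was higher and 2 were lower in both zQ175 comparisons. Beside these, 11.6% and 10.6% of all genes were called in either direction. Jag1, a Notch ligand, fell from 15.7 ± 1.93 to 7.27 ± 1.26 CPM between WT and zQ175 mice (SD, n = 8), by 1.10 on the log2 scale, and by 0.71 on the Msh3-/- background. Id4, which restrains differentiation, fell by 0.68 and by 0.62. Hdac1, a histone deacetylase, rose by 0.28 and by 0.34. All 3 are also expressed by other striatal cells, and which cells carried these changes was not tested. Of 4 Schwann cell markers, Pmp22 and Prx were lower in both zQ175 comparisons, and their summed level was 29.5 to 52.4 TPM over all mice.

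Markers of other glia and of vessels were also counted, beside the same 11.6% and 10.6% of all genes called. In zQ175 against WT mice, 1 of 8 astrocyte markers was higher, S100b, which oligodendrocytes also express, and 1 was lower, Slc1a2. Of 7 microglia markers 0 were called, of 6 endothelial markers 2 were lower, and of 6 pericyte or leptomeningeal markers 0 were called. On the Msh3-/- background 0 astrocyte and 0 microglia markers were called, 1 endothelial and 1 pericyte or leptomeningeal marker being lower. Positive log2 fold changes in these comparisons numbered 2 and 1 for astrocyte markers and 1 and 1 for pericyte or leptomeningeal markers. For microglia and endothelial markers they numbered 0 in both. Without the fold threshold 5 and 4 astrocyte markers passed the adjusted p-value, as did 3 and 4 microglia and 4 and 1 endothelial markers. Pericyte or leptomeningeal markers that passed numbered 1 and 2, and 26.5% and 24.1% of all genes passed. The summed astrocyte markers were at 2065 to 2182 TPM in WT and 1871 to 2090 in zQ175 mice, and the endothelial markers at 202 to 241 and 155 to 216. Their part in the results was not tested.

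The 5 genes outside all lists that followed the mature members most closely over the 32 mice, with genotype means removed, were Gatm, Pacs2, Prr18, Csrp1 and Litaf, with Pearson r from 0.940 to 0.953 to the mean of the myelin proteins and lipid enzymes. None of the 5 was called in either zQ175 comparison. Their log2 fold changes lay between -0.13 and 0.00 in the first and between -0.19 and 0.00 in the second.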

How the data were processed

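Striatal RNA of 32 mice was selected for polyA, and the counts the authors deposited are whole numbers for each gene and mouse, not normalized. They also deposited a table named FPKM whose columns each sum to 1000000, so the deposited values were treated as TPM. The submitters' notes name GRCm38.p6; the aligner, the counter and its strand setting are not given in the sources used here. Exons of 12 members overlap those of another gene, for 9 on the opposite strand, and such reads may be shared. Positions are from GENCODE M21.

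Counts were fitted by edgeR 4.0.16 in R 4.3.3 (TMM, edgeR's filter on low counts, robust quasi-likelihood, 1 model of the 4 genotypes), with Benjamini-Hochberg adjusted p-values over 16610 genes. Levels are TMM-scaled CPM, with a prior count of 2 on the log2 scale. For single members, exact two-sided permutation ran over 12870 arrangements, where the smallest p is 0.000155. Relations between members and the mature level used 100000 permutations, with 1e-05 as the smallest p. The 95% intervals are 1.96 standard errors. DESeq2 1.42.0 and, with pseudocounts of 0.1 and 1 on the log2 TPM scale, limma 3.58.1 were alternatives, beside RLE scaling, other filters, sex, a replicate block, each sex alone and each mouse left out; fold changes on the TPM scale understate those of low genes. Python 3.11.15, scipy 1.17.1 and pandas 2.3.3 were used for summaries.

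All members are named, with up to 6 called genes of each further list and the 5 genes most like the mature members. A gene that the rule picks is not reported here. Members and lists were chosen with earlier results of these data known. In simulated data for zQ175 against WT mice, 81% of genes changed 1.5-fold and 98% of those changed 2-fold were recovered, with 4 other calls among 16352 genes. The largest change of a member there was 1.45-fold, for Enpp6, and recovery of smaller changes was not tested. Among zQ175 animals the members also varied more, with a median coefficient of variation of 15.0% against 9.14% for all genes. In WT mice, from which the simulated spread was taken, the medians were 7.31% and 8.94%. The recovery rates may therefore be too high for the members. Counts of same-genotype mice differed beyond sampling noise in all 112 pairs, so each mouse is 1 replicate.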

Additional observations from a re-analysis of the deposited data

Results flagged for a closer look

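In 3 of 136 sets of 8 mice (33 members and the mature level in 4 genotypes), 1 mouse lay far from the rest by Dixon's test on log2 CPM, and 6.8 sets are expected by chance. The ratio of its gap to the range was 0.530 for Mbp in WT female 1, at 4033 CPM against 4480 to 4918 in the other WT mice. It was 0.562 for Mog in WT female 3, at 101 CPM against 77.7 to 87.0, and 0.539 for Mag in zQ175:Msh3-/- male 3, at 415 CPM against 272 to 331.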

How the results depend on the processing

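Of the 7 members called between zQ175 and WT mice, Car2, Mobp, Mal, Ugt8a and Enpp6 kept their calls in each of the 11 alternatives that kept both sexes and with each of 32 mice left out. Tspan2 and Fa2h lost theirs in 3 alternatives, the limma fits on TPM, with log2 fold changes of -0.22 in each, and with 6 and 7 of the mice left out; the cause was not tested. No called member changed direction in these. The number of members called was 2 in females alone, Car2 and Mal, and 3 in males alone, with Enpp6 also, between zQ175 and WT mice. Mobp and Ugt8a were called in neither sex alone. The number was 7 in females alone on the Msh3-/- background, against 6.39% of all genes, where fewer mice were compared. In females alone the median log2 fold change of the members was -0.20 on the Msh3-/- background and -0.24 for the interaction. Without the fold threshold, 12 members passed for the averaged zQ175 effect. Leaving out 1 mouse at a time gave 5 to 7 called members between zQ175 and WT mice and 4 to 8 on the Msh3-/- background, the 8 being reached without zQ175:Msh3-/- replicate 3 male. With the replicate block (sex and number), 7, 5 and 6 members were called in the zQ175 comparisons and their average, and it moved no other count by over 1.5 times. The share of all genes called was not compared for zQ175 against WT in 1 sex, the replicate block or the leave-out fits. Same-numbered mice of a sex had a median correlation of 0.0509, against 0.0578 for others, so the numbers do not pair them. The median standard error of a member was 0.0881 on the log2 scale, which limits what 8 mice a group can show.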
